A study of Mus musculus with 9 samples.

Results

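The transcripts described here are those of 8 mouse genes of folate one-carbon metabolism in the hippocampus, taken by name from the 54532 genes listed: the folate carrier Slc19a1, the mitochondrial enzymes Shmt2, Mthfd2, Mthfd1l and Aldh1l2, and the cytosolic or nuclear enzymes Shmt1, Mthfd1 and Tyms. All 8 were found once in the deposited tables as protein-coding genes. Gene expression was measured by RNA sequencing of hippocampus from C57BL/6 mice labelled male and bought at 6 to 8 weeks of age, with 3 samples in each of 3 groups. The Con group, labelled WT, was kept on a standard diet. The HMD group was given a high-methionine diet, which raises the supply of the precursor of homocysteine, for 8 weeks. The Bet+HMD group had the high-methionine diet for 8 weeks and then betaine, a methyl donor, at 2.5% (w/v) in the drinking water for 2 weeks. It is not clear whether the methionine diet went on during the betaine weeks, and whether all groups were sampled at the same age is not stated. How many animals gave each sample is not stated, so p-values measure the spread between the samples, which may in part be technical.

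Folate carries single carbon units on tetrahydrofolate. In mitochondria SHMT2 takes a carbon from serine and releases glycine, MTHFD2 or MTHFD2L oxidise the carbon to the formyl state, and MTHFD1L releases it as formate, or ALDH1L2 burns it to carbon dioxide with the formation of NADPH. In the cytosol MTHFD1 loads the formate back onto tetrahydrofolate, SHMT1 can turn it into serine, TYMS spends it on thymidylate for DNA, and methionine synthase (MTR) uses a folate-bound carbon to return homocysteine to methionine. Betaine feeds a separate route from homocysteine to methionine, which is best known in liver and kidney.

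Gene expression was deposited as FPKM (reads of a gene corrected for its length and for sequencing depth) in 2 tables. Con and HMD samples were in an earlier table, and the same 6 samples were in a later table with the 3 Bet+HMD samples. Reads assigned to genes numbered 16449388 to 18566712 per library in the earlier table. In the later table they numbered 16031464 to 18291952. The 8 genes of the shared samples changed by between -6.56% and 5.28% from the earlier to the later table. The Bet+HMD samples came with the later table alone, so betaine and a difference between batches cannot be told apart in anything said of them below. The Bet+HMD samples were also far closer to one another than other replicates. The mean chi-square per degree of freedom between pairs was 3.10 to 4.47, against 12.8 to 46.4 for pairs of Con or HMD samples in the later table. It was taken over the 16019 to 17398 genes with enough reads in a pair. The median chi-square was 1.15 to 1.45, against 2.91 to 6.97. All pairs differed by more than sampling noise, so none was merged. Transcripts of the hippocampal neuron markers Neurod6, Prox1, Spink8, Wfs1 and Zbtb20 summed to 137 to 183 FPKM over the 9 samples of the later table, with none at 0. Y-linked transcripts were present in every sample, at a sum of 25.6 to 36.9 FPKM over 4 genes, which goes with the label male. Their sum was 25.6 to 29.2 FPKM in Con, 27.9 to 32.4 in HMD and 35.0 to 36.9 in Bet+HMD. Eif2s3y averaged 6.76 FPKM in HMD and 16.9 in Bet+HMD, Kdm5d 1.35 and 2.80, and Ddx3y 19.0 and 13.4, all without overlap. Uty, at 2.29 and 2.54, overlapped. The cause of these differences was not tested. The study's methods describe female mice.

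The annotated start regions of the 3 members called between Bet+HMD and HMD, and of Mthfd2, are shown first. Where transcripts began in these samples was not measured. The Mthfd2 window lies inside the gene, whose span reaches 83325908 on the - strand. Both Slc19a1 windows begin inside the gene, whose span starts at 77032241. RefSeq (GRCm38.p6) gave windows of 250 bases before to 50 after the start site for 7 of the 8 members, with 2 windows for Slc19a1. Capitals mark a match on either strand to GCGCATGCGC (the NRF1 site), TGACG (a cAMP response half-site), CCAAT (the CCAAT box), CACGTG (the E-box), TTTCGCGC (an E2F site) or TGATGNAA (the C/EBP-ATF element bound by ATF4). The CCAAT letters on the opposite strand read as ATTGG, and those of the half-site as CGTCA. The marked words do not overlap one another.
Shmt2, chr10:127522395-127522694, - strand: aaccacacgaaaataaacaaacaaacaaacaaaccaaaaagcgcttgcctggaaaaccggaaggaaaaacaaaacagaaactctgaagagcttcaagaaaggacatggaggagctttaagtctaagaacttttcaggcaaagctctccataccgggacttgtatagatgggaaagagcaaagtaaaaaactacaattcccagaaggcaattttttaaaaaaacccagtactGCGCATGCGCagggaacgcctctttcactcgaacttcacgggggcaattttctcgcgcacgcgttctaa
Mthfd1l, chr10:3972825-3973124, + strand: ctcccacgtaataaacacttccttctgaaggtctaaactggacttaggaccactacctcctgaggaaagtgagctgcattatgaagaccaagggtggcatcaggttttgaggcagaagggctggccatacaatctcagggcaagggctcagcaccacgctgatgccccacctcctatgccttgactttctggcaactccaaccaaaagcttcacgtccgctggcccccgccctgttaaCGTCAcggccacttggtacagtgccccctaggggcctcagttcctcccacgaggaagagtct
Mthfd2, chr6:83317555-83317854, - strand: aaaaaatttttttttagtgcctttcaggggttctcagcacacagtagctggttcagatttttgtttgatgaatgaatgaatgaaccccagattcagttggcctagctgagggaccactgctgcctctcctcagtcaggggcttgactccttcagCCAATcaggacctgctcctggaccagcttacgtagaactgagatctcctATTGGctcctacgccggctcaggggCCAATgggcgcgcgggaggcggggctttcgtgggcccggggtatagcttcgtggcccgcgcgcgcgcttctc
Slc19a1, chr10:77032489-77032788, + strand, the more upstream of its windows: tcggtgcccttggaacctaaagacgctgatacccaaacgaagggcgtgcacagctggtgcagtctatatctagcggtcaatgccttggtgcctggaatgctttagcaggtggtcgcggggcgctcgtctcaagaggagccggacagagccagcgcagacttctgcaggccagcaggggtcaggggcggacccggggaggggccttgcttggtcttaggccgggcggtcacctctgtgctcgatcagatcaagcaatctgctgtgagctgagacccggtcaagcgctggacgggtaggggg

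The Shmt2 window held the whole NRF1 palindrome, which starts 19 bases before the start site and is in 0.971% of 32851 windows. The Mthfd1l window held a half-site 12 bases before its start, a short word that is in 20.8% of all windows. The Mthfd2 window held 3 CCAAT boxes, beginning 96, 47 and 22 bases before the start, where 37.4% of all windows held at least 1. The printed Slc19a1 window held none of these words. The C/EBP-ATF word, in 3.97% of all windows, and the E2F word, in 0.323%, were in no window of these genes. The E-box, in 7.15% of windows, was in that of Tyms alone among them, 61 bases before the start. GC content was 42.7% in the Shmt2 window, below the median of 52.7% over all windows, and 53.0% to 62.3% in the windows of the other members. A match describes letters and is not a binding site, and a missing match says only that the letters are not in this window.

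The levels of the 8 transcripts spanned more than an order of magnitude in control hippocampus, on the length-scaled FPKM scale. In Con samples of the later table Mthfd1 was the highest, at 8.29 ± 0.948 FPKM (SD, n = 3). Shmt2 (4.13 ± 0.911), Slc19a1 (3.47 ± 0.398) and Mthfd1l (3.46 ± 0.296) followed, and their sample ranges overlapped from each to the next. Mthfd2 (1.70 ± 0.226) and Shmt1 (1.53 ± 0.310) formed a lower pair with overlapping ranges. Aldh1l2 (0.443 ± 0.0367) and Tyms (0.318 ± 0.0409) were below 1 FPKM and did not overlap each other. The summed level of the 8 genes was 21.9 to 25.0 FPKM in Con, 21.7 to 23.2 in HMD and 21.8 in every Bet+HMD sample. The order differed between groups: Shmt2 came after Mthfd1l and Slc19a1 in HMD, with overlapping ranges, and next to Mthfd1 in Bet+HMD, with no overlap with Slc19a1 below it.

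**Figure D1:**
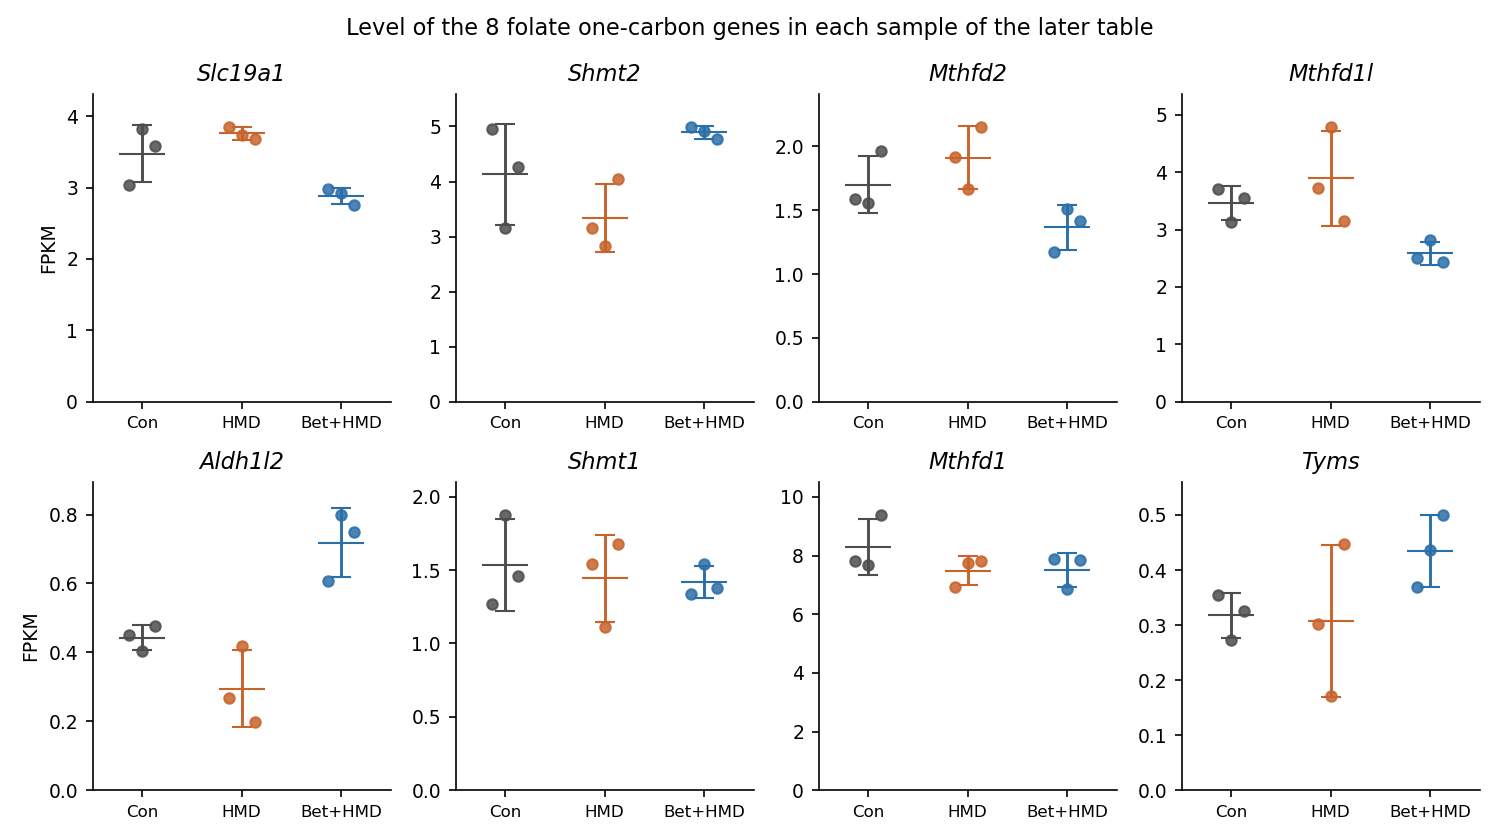
FPKM (vertical axes, from 0, a separate scale for each gene) of the 8 genes in each sample of the later table, where points are samples and the bar and whiskers are the mean and SD of 3. The Bet+HMD points of Slc19a1, Mthfd2 and Mthfd1l lie below all HMD points, those of Shmt2 and Aldh1l2 lie above them, and those of Shmt1, Mthfd1 and Tyms overlap them.

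The earlier table was used to ask whether excess methionine (HMD against Con) changed these transcripts. No member passed the test. Of the 6 members with a mean of at least 1 FPKM, 0 had an adjusted p under 0.05 by limma, 0 had an unadjusted p under 0.05, and limma voom on the recovered reads called 0. The background was the same, with 0% of 12989 genes called. The samples of the groups overlapped at every member, where 9.37% of all genes tested did not overlap. The differences below are in log2(FPKM + 1), which understates the change of low genes.

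Shmt2 had the largest difference among the members tested. Its level was 4.11 ± 0.784 FPKM (n = 3) in Con and 3.28 ± 0.688 in HMD, a log2 difference of -0.26 with a 95% interval of -0.64 to 0.13 and a limma adjusted p of 0.98. The Con samples ran from 3.31 to 4.87 FPKM and the HMD samples from 2.69 to 4.03, so the ranges overlapped. Among the other mitochondrial genes, Mthfd1l differed by 0.13 (interval -0.20 to 0.46) and Mthfd2 by 0.12 (interval -0.20 to 0.44). The cytosolic Mthfd1 differed by -0.13 (interval -0.40 to 0.14), and the reading for Shmt1 was -0.0051 (interval -0.36 to 0.35). The carrier Slc19a1 differed by 0.09 (interval -0.17 to 0.35). With 3 samples a group, differences within these bounds, which reach 0.46 for genes other than Shmt2, are not excluded. The bounds are not limits of detection, since larger differences, such as 1.37 at the blood gene Hba-a2, were not called either. The median over the 6 members was 0.04, and that of all genes tested was -0.0038. Markers of other cell types and regions differed between the same samples. Thalamus markers summed to 12.5 to 17.3 FPKM in Con and 24.1 to 73.0 in HMD, with 0 of 4 called. Blood genes summed to 98.0 to 147 and 147 to 230, with 0 of 5 called, and endothelial genes to 41.3 to 43.1 and 36.7 to 37.9, with 0 of 4 called. Of the hippocampal neuron markers, with 0 of 5 called, Prox1 was higher and Neurod6 lower in HMD, both without overlap. The part of these markers in the values of the members was not tested.

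The members below 1 FPKM rested on few reads. Reads of Aldh1l2 numbered 49 to 61 in Con and 25 to 48 in HMD, or 0.429 ± 0.0361 and 0.283 ± 0.106 FPKM, and the count-based fit of all genes with a mean of 10 reads gave a log2 difference of -0.67 (SE 0.345, limma voom adjusted p 0.977). Those of Tyms numbered 27 to 39 in Con and 16 to 48 in HMD, with a log2 difference of -0.14 in the same fit (SE 0.433, limma voom adjusted p 0.987).

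**Figure D2:**
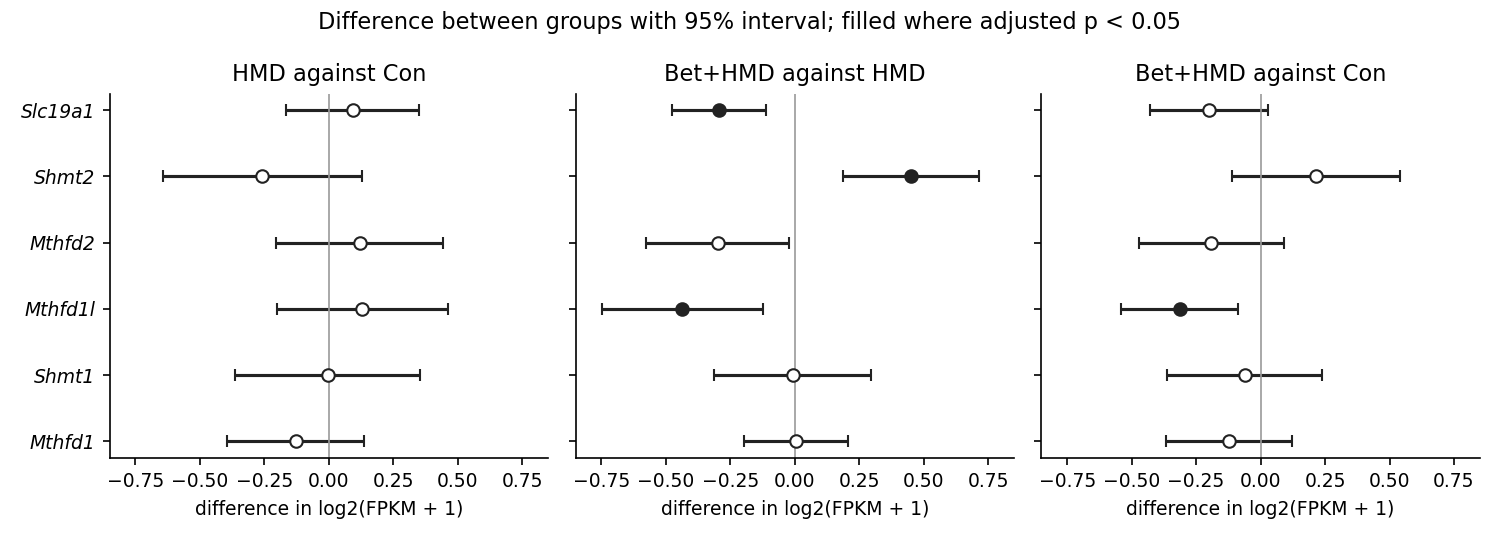
Difference in log2(FPKM + 1) for the 6 members tested (horizontal axis) with the 95% interval of limma, in each comparison, where filled points have an adjusted p under 0.05. All intervals cross 0 for HMD against Con, Shmt2 stands at 0.45 above 0 and Mthfd1l and Slc19a1 at -0.44 and -0.29 for Bet+HMD against HMD, and only Mthfd1l is filled against Con.

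Among the 27 neighbouring pathway genes, which cover folate uptake and storage, other folate interconversion, glycine cleavage, purine synthesis and serine synthesis, 23 were tested and 0 passed. The smallest p was that of Gldc, the decarboxylase of the glycine cleavage system, at 12.6 ± 0.646 FPKM in Con and 8.73 ± 1.13 in HMD. Its log2 difference was -0.48 (limma p 0.00403, adjusted p 0.859), and its groups did not overlap. Psat1, a serine synthesis enzyme, differed by 0.20 (p 0.0905) and Atic, which closes the purine ring, by -0.23 (p 0.124), both with a limma adjusted p of 0.98.

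Bet+HMD was compared with HMD in the later table to ask what differed after betaine. Of 6 members tested, 1 was called higher and 2 lower by limma. These counts lie beside a very broad background and are near it, since 48.3% of 13672 genes were called, 22.8% higher and 25.5% lower. Shmt2 was higher, Mthfd1l and the carrier Slc19a1 were lower, and the cytosolic pair Mthfd1 and Shmt1 did not pass the test. HMD and Bet+HMD samples lay apart at 4 of these 6 members, and at 5 of all 8, where the background over genes tested was 60.1%. A share of this size among the members is near what all genes gave. With the Bet+HMD samples averaged into 1 sample, a fit added after the data were seen, 0 of the 6 members and 992 of all genes were called.

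Shmt2 was at 3.15, 2.83 and 4.04 FPKM in the HMD samples and at 4.999, 4.91 and 4.77 in the Bet+HMD samples. Every Bet+HMD sample was above every HMD sample, and the Bet+HMD samples were close together. The log2 difference was 0.45 (SE 0.113, interval 0.19 to 0.72, limma adjusted p 0.0142). Each sample held 135 to 270 reads of Shmt2. The adjusted p was 0.0527 without Bet+HMD replicate 1, 0.0504 without replicate 2 and 0.233 with the Bet+HMD samples averaged. Shmt2 (ENSMUSG00000025403) lies on the - strand of chromosome 10, 127517123 to 127522444 (GRCm38), and 1.03% of its exonic bases are shared with Ndufa4l2 on the opposite strand.

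Mthfd1l was at 3.72, 4.80 and 3.15 FPKM in HMD and at 2.51, 2.82 and 2.43 in Bet+HMD. The groups did not overlap, but the spread within HMD was wide. The log2 difference was -0.44 (SE 0.133, interval -0.75 to -0.12, limma adjusted p 0.0308). The adjusted p rose to 0.108 after rescaling to TPM, to 0.065 without HMD replicate 1, to between 0.0581 and 0.0949 without any of the Bet+HMD replicates, to 0.0742 with no filter and to 0.288 with these samples averaged. The gene (ENSMUSG00000040675, chromosome 10, 3973118 to 4167081, + strand) spans 30 exon blocks, and none of its exonic bases is shared with another gene.

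Slc19a1, the reduced folate carrier of the plasma membrane, was at 3.85, 3.74 and 3.68 FPKM in HMD and at 2.97, 2.92 and 2.76 in Bet+HMD. Both groups were tight and lay apart. The log2 difference was -0.29 (SE 0.0771, interval -0.47 to -0.11, limma adjusted p 0.0176). The adjusted p was 0.166 on the TPM scale, 0.0614 by limma voom, 0.0526 to 0.0717 without any of the Bet+HMD replicates and 0.265 with these samples averaged. The gene (ENSMUSG00000001436) lies on chromosome 10 as well, 77032241 to 77061002 on the + strand, and overlaps Col18a1 on the opposite strand without sharing exonic bases.

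Mthfd2, the dehydrogenase and cyclohydrolase upstream of MTHFD1L, did not pass although its groups did not overlap. It was at 1.91, 1.67 and 2.16 FPKM in HMD and at 1.17, 1.51 and 1.42 in Bet+HMD, a log2 difference of -0.30 (interval -0.58 to -0.02, limma adjusted p 0.0728). It was past the threshold in 4 of 19 alternatives, with an adjusted p of 0.00919 after quantile normalization. Mthfd2 (ENSMUSG00000005667, chromosome 6, 83305691 to 83325908, - strand) shares no exonic bases with other genes.

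Aldh1l2, the mitochondrial formyl-folate dehydrogenase, was below the filter, so its values are from the added fits. It was at 0.268, 0.417 and 0.197 FPKM in HMD and at 0.606, 0.799 and 0.750 in Bet+HMD, with 25 to 48 and 79 to 106 reads per sample. The groups did not overlap, and the HMD samples differed by over 2-fold among themselves. Limma voom on genes with a mean of at least 10 reads gave a log2 difference of 1.43 (SE 0.294, interval 0.78 to 2.07, adjusted p 0.00226), and limma with no filter gave 0.41 in log2(FPKM + 1) with an adjusted p of 0.0358. Of the exonic bases of Aldh1l2 (ENSMUSG00000020256, chromosome 10, 83487450 to 83534140, - strand), 14.1% are shared with D10Wsu102e on the opposite strand. Whether reads were counted by strand is not stated, so part of these reads may belong to the partner.

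The cytosolic genes did not pass. Mthfd1 was at 6.92, 7.74 and 7.81 FPKM in the HMD samples and 7.88, 6.85 and 7.84 in the Bet+HMD samples, a log2 difference of 0.0045 with an interval of -0.20 to 0.21 (limma adjusted p 0.971). Shmt1 was at 1.54, 1.11 and 1.68 FPKM in the HMD samples and 1.33, 1.54 and 1.38 in the Bet+HMD samples, with a log2 difference of -0.0084 and an interval of -0.31 to 0.30 (limma adjusted p 0.966). The groups overlapped fully at both. The sign for Shmt1 turned with scaling, to 0.16 on the TPM scale, and that for Mthfd1 on leaving out a sample, to as low as -0.045. Tyms, at 0.302, 0.171 and 0.447 FPKM in the HMD samples and 0.369, 0.436 and 0.500 in the Bet+HMD samples, overlapped too, and limma voom gave a log2 difference of 0.66 (SE 0.369, adjusted p 0.162). Shmt1 (ENSMUSG00000020534, chromosome 11) shares 4.74% of its exonic bases with Smcr8, and Mthfd1 (ENSMUSG00000021048, chromosome 12) shares 0.83% with Gm47525, both on the opposite strand.

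FPKM sums were lower in Bet+HMD samples (249135 to 258514) than in HMD (289606 to 292361), so rescaling to TPM moved the median of all genes tested from -0.03 to 0.16 and the higher share of calls from 47.2% to 69.5%. Relative to those medians, Shmt2 lay above the median gene and Mthfd1l and Slc19a1 below it on both scales. On the TPM scale 1 member, Shmt2, was called. Without rescaling the median over the 6 members was -0.15.

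A ratio of transcripts within a sample is free of such scaling. These 5 pairs were chosen after the levels were seen, and with 3 samples against 3 the two-sided exact permutation test cannot go below 0.1, so no ratio could pass after adjustment over 15 comparisons. Shmt2 over Mthfd1l, which links the serine end of the mitochondrial limb to its formate end, was 0.845, 0.591 and 1.28 in HMD and 2.00, 1.74 and 1.96 in Bet+HMD. The groups had to lie apart here, since every Bet+HMD sample was above all HMD samples at Shmt2 and below them at Mthfd1l. This ratio therefore restates the levels given above and is no further support. The log2 ratio differed by 1.14 (exact permutation p 0.1, adjusted 0.25). Shmt2 over its cytosolic counterpart Shmt1 was 2.04, 2.55 and 2.41 in HMD and 3.75, 3.18 and 3.46 in Bet+HMD, a log2 difference of 0.57 with the same p. Aldh1l2 over its cytosolic counterpart Aldh1l1 differed by 1.31 without overlap, also with an exact permutation p of 0.1. Mthfd1l over Mthfd1, by contrast, overlapped between the groups, with a log2 difference of -0.58 (exact permutation p 0.2). The ratio of Mthfd2 to its paralog Mthfd2l overlapped as well, with a log2 difference of 0.32 (exact permutation p 0.2).

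**Figure D3:**
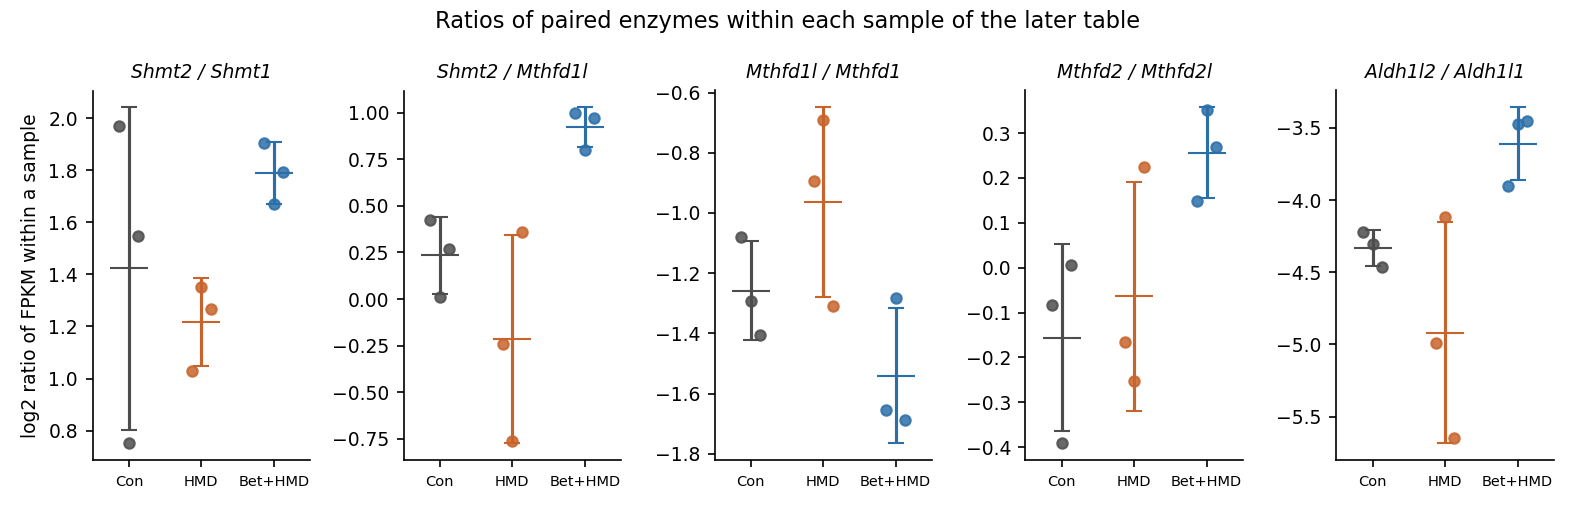
Log2 ratio of FPKM within each sample of the later table (vertical axes, a separate scale for each pair, not starting at 0) for 5 pairs of enzymes, with points for samples and bars and whiskers for the mean and SD of 3. The Bet+HMD points of Shmt2/Mthfd1l and Aldh1l2/Aldh1l1 lie above all Con and HMD points, and those of Mthfd1l/Mthfd1 overlap both.

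Markers of other cell types and regions differed between the same samples. The counts of calls among them lie beside 22.8% of all genes tested called higher and 25.5% lower. Transcripts of 5 thalamus markers summed to 25.0 to 74.0 FPKM in HMD and 21.6 to 21.9 in Bet+HMD, with 2 of 4 tested called lower. Those of 5 blood genes summed to 149 to 233 in HMD and 72.2 to 122 in Bet+HMD, with 2 of 5 called lower, and those of 4 endothelial genes to 37.1 to 38.4 and 32.5 to 34.2, with 1 of 4 called lower. Choroid plexus markers summed to 870 to 2582 and 942 to 1215, with 0 of 6 called. Oligodendrocyte markers summed to 675 to 923 and 681 to 689, with 2 of 5 called lower, and astrocyte markers to 686 to 772 and 705 to 711, with 2 of 6 called lower. Microglia markers summed to 60.3 to 71.9 and 59.7 to 63.4, with 2 of 5 called lower, and pan-neuronal markers to 1103 to 1300 and 1111 to 1124, with 1 of 5 called higher and 1 lower. Markers of hippocampal neurons summed to 137 to 161 and 150 to 156, with 1 of 5 called lower. Among them Spink8 was at 15.2 to 21.2 FPKM in HMD and 5.81 to 7.99 in Bet+HMD. None of these markers was at 0 in all samples, and their part in the differences of the folate genes was not tested. In whole hippocampus, fewer cells of a type and less RNA per cell cannot be told apart.

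Around the 8 members, the pathway differed in both directions. Of the 27 neighbouring genes 24 were tested, and 3 were higher and 9 lower in Bet+HMD than in HMD, beside the background of 22.8% higher and 25.5% lower. On the TPM scale the split was 6 higher and 8 lower. Mtr, the methionine synthase, rose from 2.83 ± 0.433 to 4.22 ± 0.334 FPKM, a log2 difference of 0.45 (SE 0.109, limma adjusted p 0.0126). Every Bet+HMD sample was above every HMD sample. Mtrr, which reactivates methionine synthase, did not pass (-0.01, limma adjusted p 0.923).

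The transcripts of all 3 serine synthesis genes were called lower, beside 25.5% of all genes tested. Neither serine nor these enzymes were measured here. Phgdh, the first enzyme from glycolysis to serine, fell from 25.8 ± 1.62 to 14.5 ± 2.21 FPKM, Psat1 from 35.0 ± 1.58 to 20.5 ± 0.817 and Psph from 4.53 ± 0.426 to 2.34 ± 0.188, with log2 differences of -0.80, -0.75 and -0.73 (limma adjusted p 0.00151, 0.000256 and 0.000911). In the glycine cleavage system, which also feeds carbon to mitochondrial folate, Gcsh (-0.95) and Dld (-0.61) fell, Amt (0.62) rose and Gldc (0.24, limma adjusted p 0.0927) did not pass. Of the purine synthesis genes, which use formyl-folate, Paics (-0.48) and Adsl (-0.32) fell, Pfas (0.31) rose and 3 did not pass. Ggh, which trims stored folate polyglutamates, fell by 0.76 and Mthfd2l, the paralog of Mthfd2, by 0.48 on the log2 scale. With the Bet+HMD samples averaged, 3 of the 12 calls among these genes were left, those of Gcsh, Phgdh and Psat1.

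**Figure D4:**
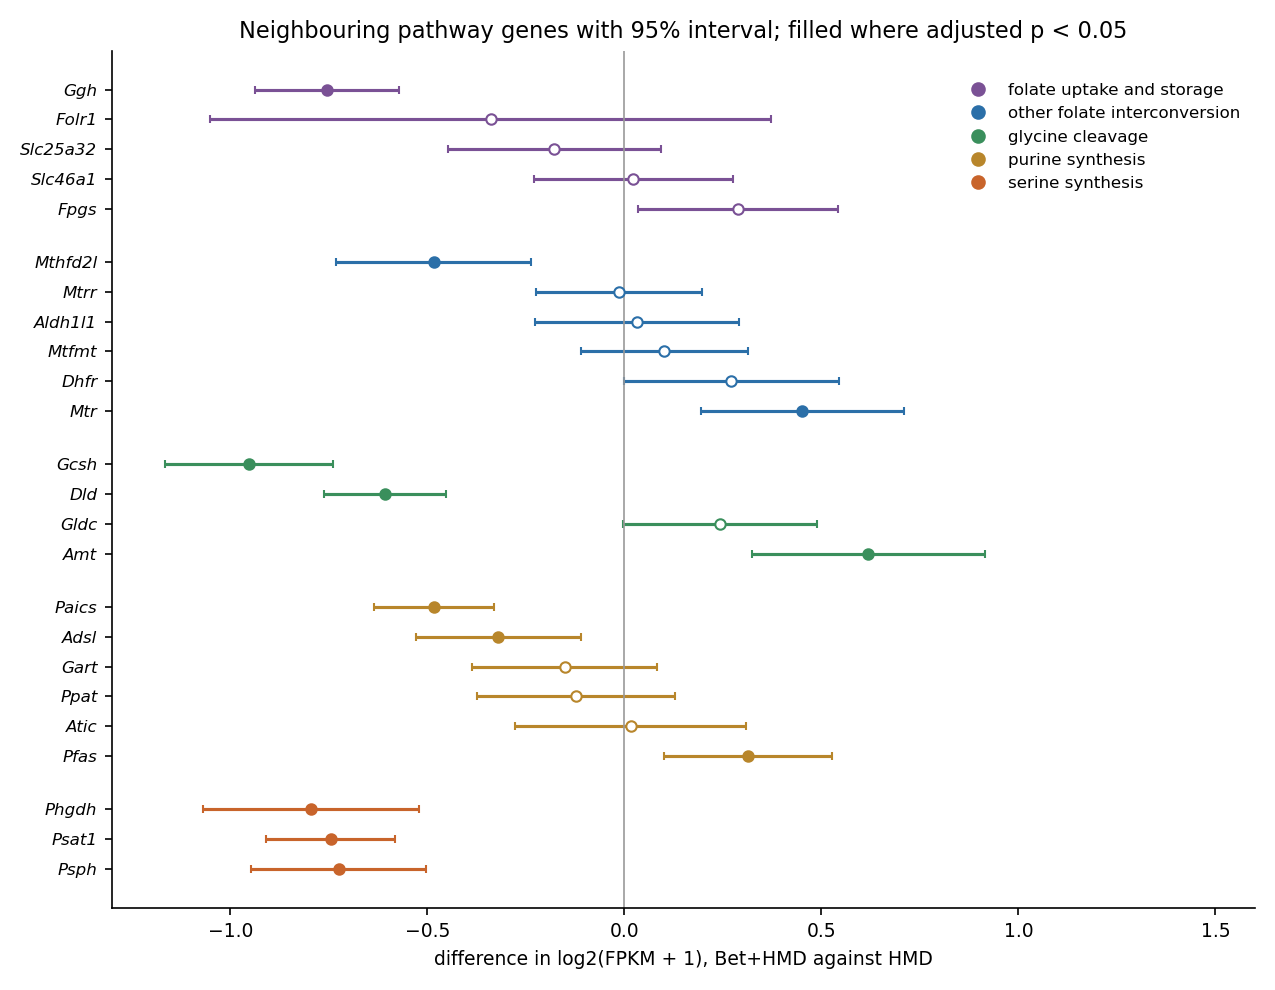
Difference in log2(FPKM + 1) between Bet+HMD and HMD (horizontal axis) with the 95% interval of limma for the 24 neighbouring pathway genes tested, coloured by their list, where filled points have an adjusted p under 0.05. Mtr, Amt and Pfas lie filled above 0, and 9 genes, among them all 3 of serine synthesis, lie filled below 0.

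ATF4, a transcription factor that raises serine synthesis genes and mitochondrial folate enzymes under amino acid stress, has known targets outside the folate pathway, and 5 of 6 genes on its list were tested. Asns, the asparagine synthetase (-0.45, limma adjusted p 0.00444), and Sesn2, a sensor of leucine (-0.39, limma adjusted p 0.0122), fell. In this comparison 25.5% of all genes tested were called lower. Atf4 itself averaged 27.9 ± 7.70 FPKM in HMD and 28.4 ± 1.55 after betaine (limma adjusted p 0.817), and Chac1 and Ddit3 did not pass, with log2 differences of 0.25 and 0.26. The part of ATF4 in the values of the folate and serine genes was not tested.

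Bet+HMD was then compared with Con, with the same Bet+HMD samples as above, so the comparisons are not independent. Here 1 of 6 members was called, beside 39.7% of 13643 genes. The higher share of all calls was 48.8%, and 73.5% on the TPM scale. Mthfd1l, at 3.70, 3.13 and 3.55 FPKM in Con, fell to the Bet+HMD values given above with a log2 difference of -0.31 (SE 0.0950, limma adjusted p 0.0373). It did not pass in 13 of 19 alternatives, among them limma voom (adjusted p 0.0997), leaving out Con replicate 1 (0.0957) or 3 (0.0612) or any Bet+HMD replicate (0.071 to 0.131), and the averaged fit (0.393). The groups did not overlap at 3 of the 6 members tested and 5 of all 8, beside 55.1% of genes tested.

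Shmt2, the member that rose against HMD, overlapped with Con. The Con samples were at 4.96, 3.16 and 4.27 FPKM, the highest of them within the Bet+HMD range, and the log2 difference was 0.22 (interval -0.11 to 0.54, limma adjusted p 0.25). Slc19a1 was at 3.04, 3.81 and 3.58 FPKM in Con, all above the Bet+HMD samples, with a log2 difference of -0.20 (limma adjusted p 0.144). Mthfd2, at 1.59, 1.56 and 1.96 FPKM in Con, had a log2 difference of -0.19 (limma adjusted p 0.238). Aldh1l2, at 0.450, 0.403 and 0.475 FPKM in Con, lay below all Bet+HMD samples with a limma voom log2 difference of 0.77 (SE 0.221, adjusted p 0.0219) and a limma adjusted p of 0.119 with no filter. The values for Mthfd1 and Shmt1 were -0.12 and -0.06 (limma adjusted p 0.383 and 0.727).

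The neighbouring genes again gave 3 higher and 9 lower of 24 tested against Con, beside 19.4% and 20.4% of all genes, and 4 higher and 5 lower on the TPM scale. Mtr (0.46), Amt (0.59) and Pfas (0.38) were higher in Bet+HMD. Gcsh (-0.95), Phgdh (-0.97), Psat1 (-0.55), Psph (-0.65), Ggh (-0.67), Dld (-0.61), Paics (-0.52), Mthfd2l (-0.43) and Gldc (-0.25, limma adjusted p 0.0477) were lower. With the Bet+HMD samples averaged, 0 of these genes were called, with 5 at an unadjusted p under 0.05 by limma. Of the ATF4 targets, Asns was lower against Con too (-0.33, limma adjusted p 0.0167).

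Markers of other cell types and regions also differed between Con and Bet+HMD. The counts of calls among them lie beside 19.4% of all genes tested called higher and 20.4% lower. Thalamus markers summed to 12.6 to 17.6 FPKM in Con and 21.6 to 21.9 in Bet+HMD, with 1 of 3 tested called higher. Endothelial genes summed to 42.0 to 44.1 and 32.5 to 34.2, with 1 of 4 called lower, and microglia markers to 69.4 to 85.9 and 59.7 to 63.4, with 2 of 5 called lower. The summed ranges overlapped for astrocyte markers (2 of 6 called lower), oligodendrocyte markers and pan-neuronal markers (1 of 5 lower in each), blood genes (1 of 5 higher and 1 lower) and choroid plexus markers (0 of 6 called). Markers of hippocampal neurons summed to 158 to 183 and 150 to 156, with 1 of 5 called higher and 1 lower. The part of these markers in the differences of the folate genes against Con was not tested.

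**Figure D5:**
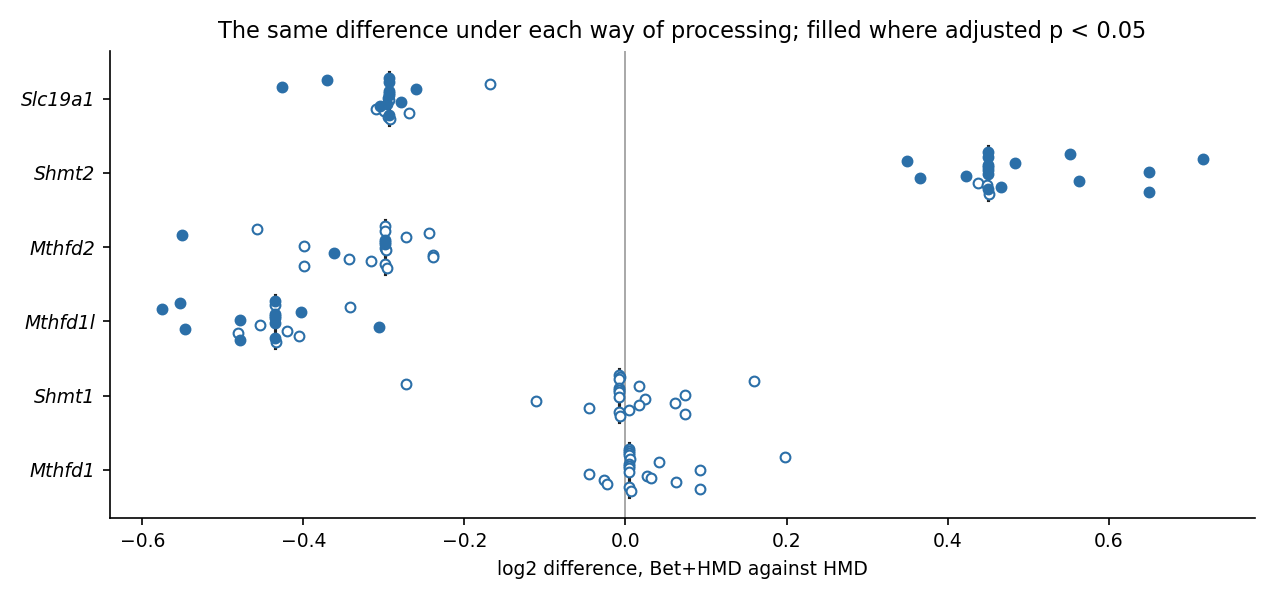
Log2 difference between Bet+HMD and HMD (horizontal axis) of the 6 members tested, as reported (black bar) and under each other way of processing (points, filled where the adjusted p is under 0.05). Shmt2 stays between 0.35 and 0.72 and Slc19a1 between -0.43 and -0.17, while Shmt1 and Mthfd1 fall on both sides of 0.

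Over the 9 samples of the later table, the genes with the pattern most like each member were found by Pearson's r of log2(FPKM + 1) over 13463 genes, as a description without a test, since the samples share their 3 groups. Slc19a1 was most like Cldn11, a tight junction gene of myelin (r = 0.98), and Mpc1-ps (0.98). Shmt2 was most like Bcl9l and Parp6 (0.96 for both), Mthfd1l like Abl2 and Zfp954 (0.97 for both), and Mthfd2 like C030006K11Rik (0.99) and Ikzf1 (0.97). Aldh1l2 was nearest to Tmem136 (0.97) and Ankrd26 (0.96), and Tyms to Drc1 and Ell (0.96 for both). Mthfd1 (Zmat5, 0.92, and Lyrm2, 0.91) and Shmt1 (Nadk, 0.87, and Zfp185, 0.86) had the least close partners.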

How the data were processed

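Hippocampal RNA of 9 samples was analysed. Per the study's methods, ribosomal RNA was depleted and stranded paired-end libraries were made. The submitters' processing notes name HISAT2 2.1.0, featureCounts 1.5.0-p3 and mm10, and the study's methods name other versions. The authors deposited FPKM values per gene in 2 tables. Columns headed COL were read as Con, a match that is inferred. FPKM times gene length and library size gave whole reads (tolerance 0.01) for 100% of values above 0. The unit was not counts, so limma 3.58.1 (R 4.3.3) with an intensity trend modelled log2(FPKM + 1) in a pair of groups from the same table, for genes with a mean of at least 1 FPKM. It was tested on simulated data. p-values were two-sided and adjusted by Benjamini-Hochberg over all genes tested, with a threshold of 0.05. SE is limma's moderated standard error. limma voom on the recovered reads was an alternative. The members, gene lists, promoter words and ratios were chosen with earlier results of these data known. Genes named beside the members were pathway genes past the threshold or, where none passed, the 3 of smallest p, genes of the ATF4 and proliferation lists past the threshold, and the 2 genes of highest r for each member. A gene of the planned pathway list is not reported here. Alternatives changed the pseudocount to 0.1, the filter to none, 5 FPKM or 10 reads, the scaling, moderation, gene set, groups in the fit, table, replicate block and samples. Exon blocks are from GENCODE M21 and promoter windows from RefSeq.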

Additional observations from a re-analysis of the deposited data

How the results depend on the processing

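Against HMD, the 3 member calls became 0 at 5 FPKM (where 1 member was tested), 1 on the TPM scale, 0 with the Bet+HMD samples averaged and 0 to 4 on leaving out 1 sample. The count was 0 without Bet+HMD replicate 1 or 2 and 1 without replicate 3. The 12 pathway calls became 7 at 5 FPKM, 3 with the samples averaged and 9 to 14 on leaving out 1 sample. Against Con, the 1 member call became 0 with no filter, at 5 FPKM, with TPM, median ratio centring, all 3 groups in one fit, limma voom, the replicate block or the samples averaged, 3 after quantile normalization, 2 with the 10-read filter and 0 to 1 on leaving out 1 sample. The 12 pathway calls there became 0 with the samples averaged and 6 to 13 on leaving out 1 sample (6 without Bet+HMD replicate 2 or 3). For all genes, 5 FPKM left 4166 and 3260 calls (fewer genes tested), the averaged samples 992 and 181, and leaving out a Bet+HMD replicate as few as 4782 and 3302, from 6607 and 5422. HMD against Con had 0 calls, 9 with all 3 groups in one fit and 2 without Con replicate 2. For members and pathway genes it stayed at 0 in all 20 alternatives.

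Signs turned only at Shmt1 and Mthfd1, with no call in either direction. For HMD against Con, Shmt1 became 0.0091 with TPM, 0.013 after quantile normalization and -0.078 to 0.096 on leaving out 1 sample. For Bet+HMD against HMD it became 0.16 with TPM, 0.016 with median ratio centring, 0.074 by limma voom with either filter and -0.11 to 0.061 on leaving out 1 sample, and Mthfd1 ran from -0.045 to 0.063 on leaving out 1 sample, with 0.20 under TPM and 0.093 by limma voom. Against Con, TPM gave 0.10 for Shmt1 and 0.081 for Mthfd1, and leaving out 1 sample gave -0.14 to 0.033 for Shmt1. The cause was not tested. Of 363 member values under alternatives, 303 kept sign and side of the threshold.

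Deviations of same-numbered samples correlated at -0.18 to 0.35 over the comparisons. For HMD against Con they correlated at -0.0555, 0.35 and 0.32 for replicates 1, 2 and 3. Differently numbered samples were not compared, so whether the replicate numbers pair the samples was not tested. The replicate block moved the genes with an unadjusted limma p under 0.05 from 592 to 1034 for HMD against Con. For Bet+HMD these genes went from 7627 to 7007 against HMD and from 6764 to 5934 against Con. With the replicate block, 2 members (Slc19a1 at an adjusted p of 0.0631 was lost) and 10 pathway genes were called against HMD, 0 and 8 against Con, and 0 for HMD against Con. Depth limits Aldh1l2 and Tyms, with at most 106 reads per sample. Shmt1, with 66 to 118 reads per sample of the later table, and Mthfd2, with 71 to 127, rested on few reads as well.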

Other observations

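Tyms makes thymidylate for DNA synthesis, and of the 10 proliferation genes listed beside it only Pcna passed the filter of 1 FPKM. Pcna, the sliding clamp of replication, was at 17.8, 16.8 and 16.7 FPKM in HMD and at 11.7, 11.9 and 11.03 in Bet+HMD, a log2 difference of -0.53 (SE 0.0680, limma adjusted p 0.000845). Every Bet+HMD sample was below every HMD sample. Against Con its log2 difference was -0.52 (limma adjusted p 0.0108). By limma voom on genes with a mean of at least 10 reads, 7818 of 16846 genes were called against HMD, 62.0% of them higher. In that fit the proliferation genes below the filter of 1 FPKM differed in both directions between Bet+HMD and HMD. Tk1, the thymidine kinase that salvages thymidine, had a log2 difference of 2.33. It had 3 to 9 reads per HMD sample and 29 to 33 per Bet+HMD sample. Tk1 reached 10 reads only through the Bet+HMD samples, so its value is a description and not a call. Ccna2, the cyclin of S phase, had 1.04 (adjusted p 0.0257) and Mki67, a marker of dividing cells, 0.74 (adjusted p 0.0249). Pcna was lower in that fit as well (-0.48, adjusted p 0.00192), and Top2a, with -1.02 (adjusted p 0.0506), did not pass. Mcm2 (-0.32), Mcm3 (-0.39), Rrm2 (-0.48) and Mcm5 (0.05) did not pass either, with limma voom adjusted p of 0.248 to 0.93. Cdk1 was not in that fit. Against Con, limma voom called 6506 of 16868 genes, 64.2% of them higher. Ccna2 was called higher (1.81, adjusted p 0.0103), while Mki67 had 0.52 (adjusted p 0.0727). Tk1, with 3 to 9 reads per Con sample, again reached 10 reads only through the Bet+HMD samples, and its value of 2.31 is a description. Tyms, with 0.66 against HMD (adjusted p 0.162), did not pass in the same fit.

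Folate enters the brain mainly at the choroid plexus, where the receptor Folr1 is abundant. Folr1 was at 8.89 ± 5.0 FPKM in Con, 7.38 ± 3.21 in HMD and 5.28 ± 0.949 in Bet+HMD in the later table. The Con samples were widely spread, and choroid plexus markers ran from 772 to 3208 FPKM in the same samples. Neither Folr1 (limma adjusted p 0.387 against HMD) nor Slc46a1, the proton-coupled folate transporter (adjusted p 0.88), passed the test. Slc19a1 did not show this spread, with a coefficient of variation of 2.31% to 11.5% over the groups.

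Between members over the 9 samples, Shmt2 and Slc19a1 had the strongest relation (r = -0.87), followed by Slc19a1 and Aldh1l2 (-0.84) and Mthfd1l and Tyms (-0.81). The 3 groups lie behind these values, so they are given as a description.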
